A study of Mus musculus with 3 samples.

Results

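Cytosolic ribosomal protein genes encode the proteins of the large (Rpl) and small (Rps) subunits of the ribosome that translates mRNA in the cytosol. They were chosen by name and transcript type alone. The gene name had to start with Rpl or Rps followed by a digit, a or p, the annotated transcript types had to include protein_coding, and S6 kinases (Rps6k) and names with -ps (pseudogenes) were left out. This rule found 85 of the 27088 genes of the table, of which 50 were counted with the large subunit and 33 with the small subunit by name. Rpl7l1 was counted with the large subunit by its name alone. The other 2, Rps19bp1 and Rps23rg1, carry the name but are not known to encode a protein of the ribosome. The annotation in the table placed 82 of the 85 in the ribosome pathway, all except Rps19bp1, Rps23rg1 and Rpl7l1. The genes lay on 19 chromosomes, and chromosome 7 held the most of them, with 14.

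The study asked how SJMHE1, a small peptide from the blood fluke Schistosoma japonicum, acts in BALB/c mice with allergic rhinitis induced by ovalbumin (OVA). Mice of the PBS and SJMHE1 groups were both sensitized with OVA and aluminum hydroxide and challenged with OVA through the nose, and the Control group was healthy mice. All groups were female mice that were 6 weeks old at the start, and the labels give an age of 13 weeks. B cells were sorted from the spleens by flow cytometry, and the samples of 3 mice were mixed into 1 library per group, so that there was no replicate and no test between conditions could be made. The peptide was injected as an emulsion in incomplete Freund's adjuvant and PBS was injected without it, so effects of peptide and adjuvant cannot be told apart. The value columns named for PBS and SJMHE1 were compared, and the Control library was not analysed here. The sum of all counts was 48267168 for PBS and 51280237 for SJMHE1.

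The label of B cells was checked against 8 markers of this lineage, whose FPKM (fragments per 1000 bases of exon and 1000000 mapped fragments) summed to 2698 in PBS and 2771 in SJMHE1. None of the markers of the lists named here was at 0 in either library. The 12 T cell markers were all lower in SJMHE1, 11 of them past 2-fold, with sums of 74.6 and 37.0 FPKM. Lck alone held 27.9 and 25.2 FPKM of these sums. The 10 macrophage markers summed to 122 and 66.7 FPKM, 5 of them higher and 5 lower, and the 7 plasma cell markers to 654 and 549 FPKM, with 6 lower. The 9 erythroid markers summed to 154 and 202 FPKM, and the 8 that passed the filter on low values were all higher in SJMHE1. All 10 heat shock genes were higher in SJMHE1, with sums of 1627 and 6436 FPKM. The part of these differences in the values of the ribosomal protein genes was not tested. In a library from mixed cells, fewer cells of a type and less RNA per cell cannot be told apart.

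A ribosome holds 1 copy of nearly every ribosomal protein, and cells make these proteins in step with one another. Their mRNAs belong to the terminal oligopyrimidine (TOP) class. Such an mRNA starts with a C followed by an unbroken run of C and T bases, through which mTOR signalling and the protein Larp1 control its translation. Lymphocytes enlarge their pool of ribosomes when they are activated. Because the mRNAs are short, abundant and made in many cells, mammalian genomes also hold many processed pseudogenes of this family, which are copies of the mRNA that were written back into the genome without introns.

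Promoter windows of 300 bases, 250 before the start and 50 from the start on, were found in RefSeq (GRCm38.p6) for 65 of the 85 genes. The 60 bases around the start (35 before it and 25 from it on) are shown for members whose annotated start opens with such a tract, in capitals, and for Rplp0, whose annotated start does not.
Rpl28, chr7:4792930-4792989, plus strand: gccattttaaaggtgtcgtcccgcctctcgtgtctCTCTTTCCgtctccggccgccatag
Rpl15, chr14:18270962-18271021, minus strand: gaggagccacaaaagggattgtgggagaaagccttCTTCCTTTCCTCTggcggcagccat
Rps6, chr4:86857343-86857402, minus strand: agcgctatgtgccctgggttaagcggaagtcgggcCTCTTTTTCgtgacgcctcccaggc
Rps18, chr17:33955641-33955700, minus strand: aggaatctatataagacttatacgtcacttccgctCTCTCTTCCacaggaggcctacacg
Rps27, chr3:90213624-90213683, minus strand: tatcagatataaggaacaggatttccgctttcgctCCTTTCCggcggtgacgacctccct
Rps27rt, chr9:114982715-114982774, minus strand: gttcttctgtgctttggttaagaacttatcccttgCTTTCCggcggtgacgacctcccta
Rplp0, chr5:115559432-115559491, plus strand: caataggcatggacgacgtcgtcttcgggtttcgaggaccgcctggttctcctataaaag

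A C at the annotated start followed by at least 4 of C or T was present in 13 of the 65 member promoters (20%) and in 2.49% of the 27025 promoters of all genes. When the tract could begin up to 5 bases before or after the annotated start, the shares were 46.2% and 18.5%. The tract was longest in Rpl15, with 13 bases. Among members with a ratio, the 13 with the tract at the start had a median of -0.15 and the 50 without it a median of -0.10, on the log2 scale of SJMHE1 over PBS. The 13 include Rps18, Rpl38 and Rps27rt, whose sequences are shared with copies or with another gene. The 50 include members whose tract begins within 5 bases of the annotated start. The difference between these medians was not tested. An annotated start can differ from the start used in B cells, and by how many bases was not measured. The window shown for Rplp0 holds TATAAA after its annotated start. A missing tract therefore says only that these letters are not at this position.

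Other motifs were searched as exact letters on both strands of the 300-base windows. CCGGAAG, the core that ETS factors bind, was in 24 of 65 member promoters (36.9%), in 9.12% of all promoters and in 15.4% of those of other protein-coding genes in the table. CTTTCC, which can lie within the start tract, was in 47.7% of member promoters and 26.3% of all. AAGATGG, the core of the YY1 site, was in 13.8% and 6.48%. The GC box GGGCGG was in 60% of member promoters, 35.9% of all promoters and 59.2% of those of other protein-coding genes, and TATAAA was in 9.23%, 14.2% and 8.33%. A match of letters describes the window and does not show a bound factor.

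Ribosomal protein genes were among the most abundant mRNAs of both libraries. The 85 genes took 2018530 counts in PBS, which is 4.18% of the library (95% exact binomial interval 4.18 to 4.19%), and 1979630 counts in SJMHE1, which is 3.86% (3.86 to 3.87%). These intervals cover counting error only, and reads without molecular identifiers are not independent molecules. Of the 200 protein-coding genes with the highest FPKM, 55 were ribosomal protein genes in PBS and 57 in SJMHE1. Of the 83 members with an FPKM of at least 1 in either library and above 0 in both, 66 reached 100 FPKM in PBS and 63 in SJMHE1. The 2 that did not pass were Rps23rg1, at 0.54 and 0.02 FPKM, and Rpl3l, the striated muscle paralog of Rpl3, at 0.14 and 0.25 FPKM.

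The highest level was that of Rps3a1, a small subunit protein at the exit of the mRNA channel, with 1132 FPKM in PBS and 1053 FPKM in SJMHE1. Rplp1, of the stalk that recruits elongation factors, followed with 1043 and 1010 FPKM. Rps4x had 961 and 863 FPKM, and Rpl4, which lines the peptide exit tunnel, 844 and 788 FPKM. These 4 were lower in SJMHE1, and their order was the same in both libraries.

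The lowest levels among the 83 were those of Rpl21 (3.22 and 1.76 FPKM), Rpl29 (1.97 and 3.45 FPKM), Rps19bp1 (8.09 and 6.66 FPKM), Rps27l (9.98 and 9.59 FPKM) and Rpl26 (11.6 and 9.19 FPKM). Rpl21, Rpl29 and Rpl26 encode proteins of the large subunit, and their rows stood far under the median member, which was 171 FPKM in PBS and 180 FPKM in SJMHE1. These 2 medians belong to different genes and do not give the change of a typical member. The median of the log2 ratios of the members, SJMHE1 over PBS, was -0.11. From the 10th to the 90th percentile, the FPKM of the 82 members counted with a subunit among the 83 spanned 15.8-fold in PBS and 18.2-fold in SJMHE1.

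**Figure D1:**
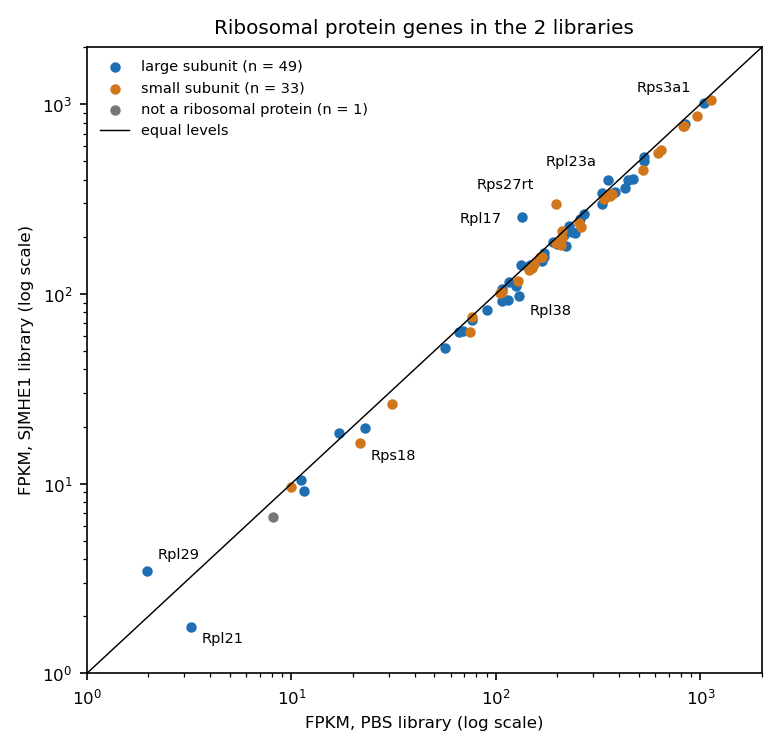
FPKM of each of the 83 ribosomal protein genes in the PBS library (x axis, log scale) and the SJMHE1 library (y axis, log scale), coloured by subunit, with the line of equal levels. Most points sit just under the line, from 1.97 to 1132 FPKM in PBS, while Rpl17, Rps27rt and Rpl29 sit above it.

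This spread depended on how reads and lengths were counted. The deposited FPKM divided the counts by the length of all annotated exons of a gene laid together, since the length implied by the FPKM and the counts was 1.14 times that union length in every one of the 83 members, from the lowest ratio to the highest. Transcripts with retained introns were annotated for 65 of the 85 members and lengthen the union, which was 6256 bases for Rps24 against 399 bases of longest coding sequence. Rps24 stood at 145 FPKM in PBS for this length. When the counts of a member and its copies elsewhere in the genome were summed and divided by the longest coding sequence, the span from the 10th to the 90th percentile was 3.02-fold in PBS and 2.91-fold in SJMHE1. On this scale, in counts per 1000000 library counts and 1000 coding bases, Rps27 was the highest in PBS at 2924, followed by Rpl41 at 2655 and Rps24 at 2596. This order depends on the annotated coding length. It was 138 bases for Rpl41, whose copies Gm10736 and Gm10180 are 78 bases long, and a shorter length would raise its value. The counts also include reads outside the coding sequence, which weigh most in genes with short coding sequences. The median was 1161 in PBS and 1073 in SJMHE1.

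A copy was defined as a pseudogene or protein-coding row of the table that is not a member and that shares with a member at least 25% of the 50-base windows of its own transcripts in GENCODE M21. There were 383 such rows, 376 of them annotated as pseudogenes, for 73 of the 85 members. Rpl21 had 35, the most of any member. Copies took 456082 counts in PBS (0.945% of the library) and 431454 in SJMHE1 (0.841%), and 365 of the 383 held at least 1 count in PBS. In the median member 89.5% of the 50-base windows of the coding sequence were also found in another gene. The copy with the most counts was aligned to the coding sequence for 72 members, with a median identity of 99.6% and a range of 95.1 to 100%, and 18 of these copies matched at every aligned base.

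Stretches of 60 bases show how close they are. The first line of each set is the coding sequence of the gene, and capitals mark bases of the line that differ from it. For Rpl21, Rps18 and Rpl29 the stretch shown is the one with the most differences. Coordinates are those of the whole gene or copy in mm10.
Rps18, bases 313 to 372, gene at chr17:33951999-33955663: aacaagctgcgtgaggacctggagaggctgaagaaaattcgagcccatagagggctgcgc
Rps18-ps6, chr13:97760072-97760632: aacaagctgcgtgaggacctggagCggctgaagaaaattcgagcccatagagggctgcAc
Rpl21, bases 277 to 336, gene at chr5:146832890-146837032: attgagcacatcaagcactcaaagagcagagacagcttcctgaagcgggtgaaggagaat
Gm10163, chr9:88390837-88391317: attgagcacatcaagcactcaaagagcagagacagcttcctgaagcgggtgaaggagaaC
Gm13370, chr2:24985984-24986466: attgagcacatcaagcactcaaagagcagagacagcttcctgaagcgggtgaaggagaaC
Gm10240, chr15:68309819-68310301: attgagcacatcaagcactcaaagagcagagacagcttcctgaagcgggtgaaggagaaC
Rpl29, bases 13 to 72, gene at chr9:106429454-106431568: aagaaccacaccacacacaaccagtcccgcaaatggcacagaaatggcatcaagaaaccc
Gm8210, chr1:43189156-43189638: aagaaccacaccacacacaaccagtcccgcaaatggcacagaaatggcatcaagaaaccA

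Over the whole coding sequence, Rps18 and Rps18-ps6 were identical at 452 of 456 bases, Rpl21 and each of its 3 copies shown at 478 of 480, and Rpl29 and Gm8210 at 477 of 480. The 3 Rpl21 copies shown lie on different chromosomes and were identical to one another at all 481 bases of Gm10163. They held nearly equal counts. Gm10163 had 7194 counts in PBS and 7232 in SJMHE1, Gm13370 had 7193 and 7232, and Gm10240 had 7139 and 7243. A read within such bases has no single place in the genome, so these counts include reads that match several places. Whether such a read was counted once or at each place is not given in the sources used here.

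For 9 members, copies held over 50% of the summed counts in PBS. The share in copies was 99.0% for Rpl29, 98.1% for Rpl21, 96.0% for Rpl26 and 92.9% for Rps2, which helps to form the entry of the mRNA channel. It was 90.6% for Rps18, 87.2% for Rpl35a, 84.2% for Rpl30, 68.2% for Rpl17 and 62.1% for Rpl7a. The row named Rps18 had 21.6 FPKM in PBS and 16.3 FPKM in SJMHE1, while Rps18-ps6 had 655 and 596 FPKM. The row of Rpl26 had 920 and 772 counts, and its copy Gm15772 had 21940 and 22314 counts.

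The comparison of SJMHE1 with PBS asks what the peptide given in adjuvant changed in splenic B cells of mice with allergic rhinitis. Ribosomal protein genes were slightly lower in the SJMHE1 library. Of the 83 members, 74 were lower and 9 higher in SJMHE1, against 51.9% lower among all 12433 genes compared. The median log2 ratio of the members was -0.11, which is 7.13% lower, with quartiles of -0.16 and -0.06. The median of all genes compared was -0.013. Among the 207 other protein-coding genes with a mean FPKM of at least 100, 56% were lower and the median was -0.04. The difference depended on the scaling: with FPKM rescaled to the same sum in both libraries the members' median was -0.024, with 54 lower and 29 higher, while the median of all genes was 0.070 and 39.5% of all genes were lower.

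The differences were small. No member differed by over 2-fold, against 6% of all genes compared. Within 1.2-fold in either direction lay 73 of the 83 members (88.0%), and 63.1% of all genes. Past 1.2-fold, 7 members were lower, against 20.2% of all genes and 11.1% of the other abundant protein-coding genes, and 3 members were higher, against 16.7% of all genes. The exact 95% counting interval of the ratio lay below 0 for 68 members and above 0 for 6, against 34.4% and 30.9% of all genes. These intervals are narrow because the members have many counts, with a median half-width of 0.03 on the log2 scale, and they hold no variation between mice. They also hold no uncertainty of the scaling. Rescaling FPKM to a common sum adds 0.083 to every log2 ratio, which exceeds this half-width, and the intervals were not counted again under it.

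**Figure D2:**
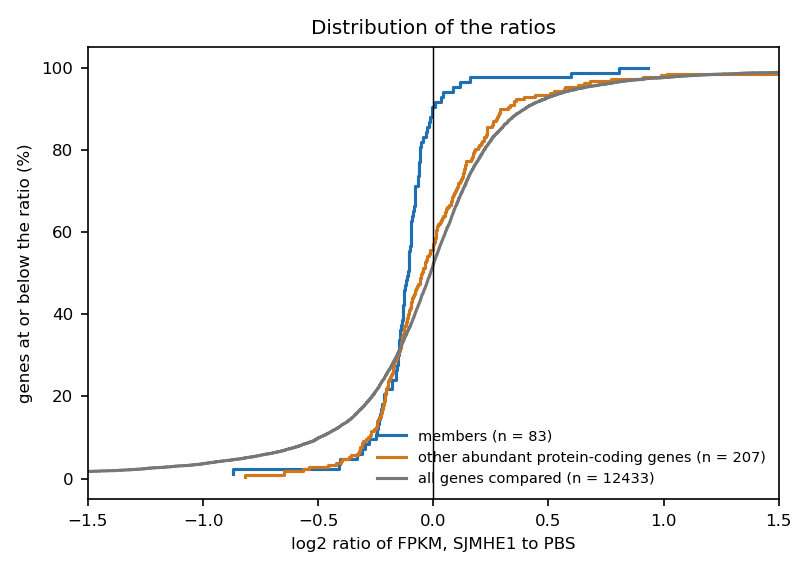
Cumulative share of genes (y axis, percent) at or below each log2 ratio of FPKM, SJMHE1 to PBS (x axis, shown from -1.5 to 1.5), for the 83 members, 207 other abundant protein-coding genes and all 12433 genes compared. The line of the members rises steeply to the left of 0, with a median of -0.11 against -0.04 and -0.013.

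The medians of the large and the small subunit were close. The 49 large subunit genes had a median log2 ratio of -0.10, with 42 lower, and the 33 small subunit genes had -0.11, with 31 lower. The order of the members was nearly the same in both libraries, with a Spearman rho of 0.984 across the 83 genes, which share libraries and annotated lengths. Across the same genes the ratio had a rho of 0.06 with the mean FPKM and of -0.10 with the length implied by the FPKM.

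The lowest ratios were those of Rpl21 (-0.87, 95% counting interval -1.07 to -0.68), Rps18 (-0.41), Rpl38 (-0.41), Rpl26 (-0.33) and Rpl7a (-0.31). Rpl38, a small protein on the surface of the large subunit, had 129 FPKM in PBS and 97.6 FPKM in SJMHE1. Rpl7a had 115 and 92.9 FPKM. Also lower past 1.2-fold were Rpl3, near the peptidyl transferase centre, at 220 and 180 FPKM (-0.29), and Rps19bp1 (-0.28). The highest ratios were those of Rpl17 (0.93, 0.90 to 0.97), Rpl29 (0.81, 0.49 to 1.14), Rps27rt (0.60, 0.54 to 0.66), Rpl23a (0.16) and Rpl7l1 (0.12). Rpl17, at the rim of the peptide exit tunnel, had 134 FPKM in PBS and 255 FPKM in SJMHE1, and Rpl23a, also at the tunnel exit, had 355 and 396 FPKM.

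**Figure D3:**
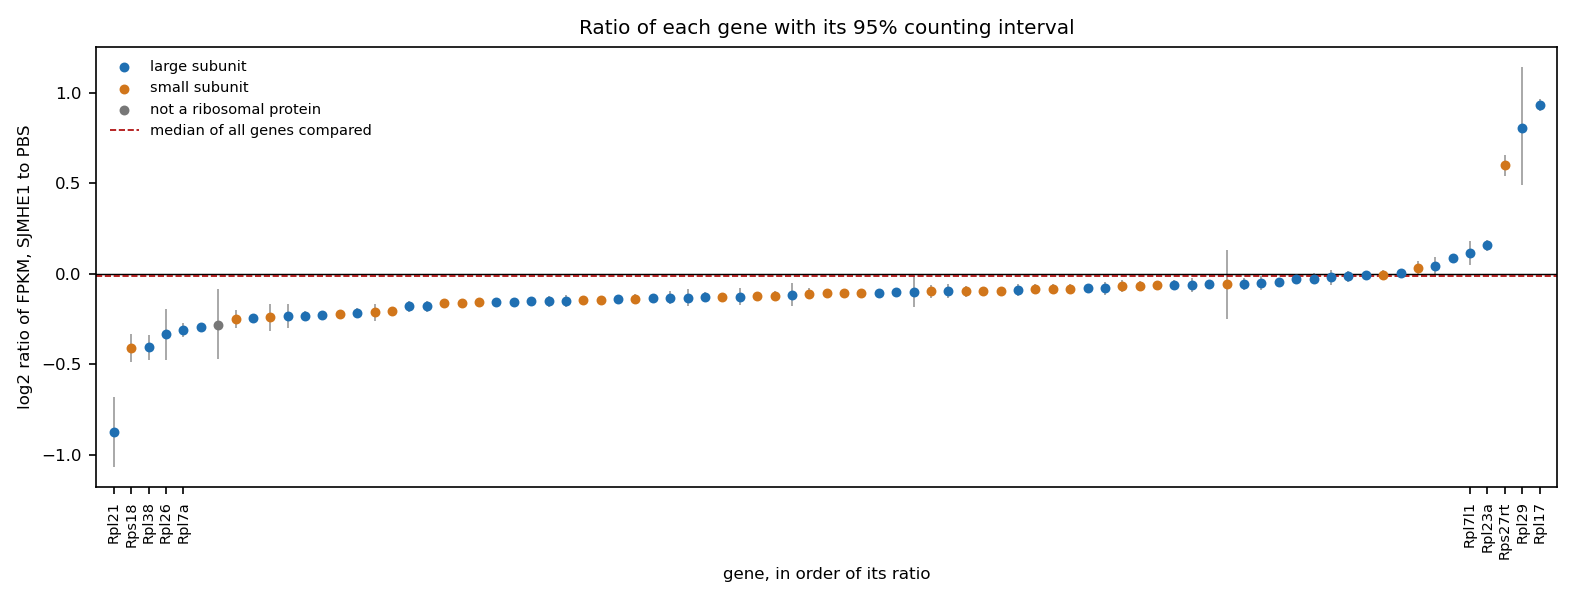
Log2 ratio of FPKM, SJMHE1 to PBS (y axis), of each of the 83 members in order of the ratio (x axis, with the genes at either end named), with the exact 95% counting interval as a vertical line, coloured by subunit, and the median of all genes compared as a dashed line. Apart from a few genes at each end, from Rpl21 at -0.87 to Rpl17 at 0.93, the members lie in a narrow band with quartiles of -0.16 and -0.06.

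Most of these extreme members were rows whose sequence is held by copies. With the counts of each member and its copies summed and scaled to the library sum, Rpl17 moved from 0.93 to -0.01 (-0.04 to 0.01), since its copies Rpl17-ps10 and Rpl17-ps3 went the other way, from 9316 to 5119 counts and from 7405 to 4484 counts. Rpl29 moved to -0.19 (-0.22 to -0.15), Rpl21 to -0.10 (-0.12 to -0.07), Rps18 to -0.15 (-0.18 to -0.13) and Rpl26 to -0.07 (-0.10 to -0.05). Rpl23a moved to -0.06 and Rpl38 to -0.19. Rpl38-ps2, identical to Rpl38 over its 210 coding bases, had 551 counts in PBS and 930 in SJMHE1. The ratios of Rps2 and Rpl30, of which copies also held most counts, were -0.24 and -0.23 alone and -0.27 each with copies.

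Summed in this way, 78 of the 83 members were lower and 5 higher, namely Rpl35a, Rps21, Rpl36, Rpl7l1 and Rps27rt. The median was -0.11, and the standard deviation over members was 0.11 against 0.22 for the rows alone. Past 1.2-fold, 4 were lower, which were Rpl3, Rps19bp1, Rps2 and Rpl30, and 1 was higher, which was Rps27rt. Since a read may have been counted at several places, the sum was also made with the copy of the most counts alone. This gave 76 lower and 7 higher, a median of -0.12 and a ratio of 0.29 for Rpl17. The 74 members with under 50% of their summed counts in copies had a median of -0.11 as deposited, with 67 lower.

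**Figure D4:**
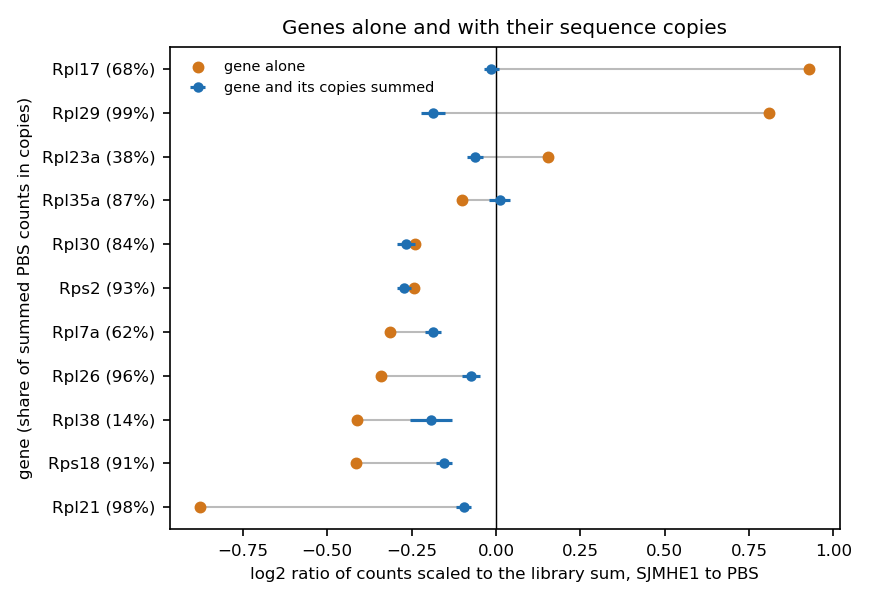
Log2 ratio of counts scaled to the library sum, SJMHE1 to PBS (x axis), for members with over 50% of their summed PBS counts in copies or whose ratio moved by at least 0.2, each alone (orange) and summed with its copies (blue, with the exact 95% counting interval). The genes alone run from Rpl21 at -0.88 to Rpl17 at 0.93, and the sums from Rps2 at -0.27 to Rpl35a at 0.01.

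A member was not counted as a copy, so Rps27 could not be added to Rps27rt, and by this rule Rps27rt stayed apart. It is a gene without an annotated intron at chr9:114982366-114982739 in mm10, and Rps27, a zinc-binding protein of the small subunit, is at chr3:90212522-90213648. The coding sequences of Rps27 and Rps27rt were identical at all 252 bases, whereas Rps27l, the paralog that p53 induces, matched Rps27 at 183 of 252 (72.6%). Their first 60 coding bases are shown with differences from Rps27 in capitals.
Rps27: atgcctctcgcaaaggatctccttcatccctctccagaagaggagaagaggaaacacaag
Rps27rt: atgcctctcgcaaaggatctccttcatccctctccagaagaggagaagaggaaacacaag
Rps27l: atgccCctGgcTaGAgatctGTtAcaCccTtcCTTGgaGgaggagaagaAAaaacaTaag

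Rps27rt had 196 FPKM in PBS and 298 FPKM in SJMHE1, and Rps27 had 620 and 554 FPKM. The promoter windows of the 2 genes shared a run of 38 bases that began at base 2 from the start in Rps27 and base 1 in Rps27rt, and no run of 12 bases before both starts. The row of Rps27rt held 10.2% of the counts of the pair in PBS and 16.2% in SJMHE1. Summed, the pair had 39514 and 40037 counts, a log2 ratio of -0.07 (-0.09 to -0.05). A read inside the coding sequence cannot be assigned to either gene, so the ratio of Rps27rt alone is uncertain.

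Other paralog pairs are less alike. Rpl22, an RNA-binding protein needed for T cell development, had 65.8 FPKM in PBS and 63.1 FPKM in SJMHE1, and Rpl22l1 had 69.4 and 63.6 FPKM, with 69.4% identity over the aligned coding bases. Rpl36a had 108 and 106 FPKM and Rpl36al 56.1 and 51.8 FPKM, with 87.7% identity. Rpl7, with 442 and 397 FPKM, far exceeded Rpl7l1, with 17.1 and 18.6 FPKM and 53.8% identity. Rpl10 had 330 and 297 FPKM and Rpl39 151 and 138 FPKM. The log2 ratio of Rps27l was -0.06, with an interval of -0.25 to 0.13. Values of Rpl10l, Rpl39l and Rps4l were not analysed here.

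The members were also described by their role in the ribosome. The counts by role are read against the 74 of all 83 members (89.2%) and the 51.9% of all genes that were lower. With FPKM rescaled to a common sum, the numbers lower were 2 of 3 in the P stalk, 0 of 2 in the 5S particle and 4 of 8 at the exit tunnel. They were 4 of 5 in the group listed as large subunit core and 4 of 5 at the mRNA entry and decoding region. Of the anaemia genes 5 of 9 were lower. Under that scaling Rplp1, Rpl5, Rpl11, Rpl19, Rpl31, Rpl8, Rps23, Rps19 and Rps10 were among those that turned higher. The P stalk, which activates the GTPases of elongation, had 3 of 3 members lower, with Rplp0 at 429 FPKM in PBS and 362 in SJMHE1 and Rplp2 at 171 and 157. Its ratios ran from -0.24 in Rplp0 to -0.05 in Rplp1. The proteins that join the 5S rRNA, which also bind Mdm2 when ribosome assembly is disturbed, were close to equal. Rpl5 had 258 and 248 FPKM (-0.06, -0.08 to -0.04) and Rpl11 had 117 and 116 FPKM (-0.01, with an interval of -0.04 to 0.02).

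Around the peptide exit tunnel, 6 of 8 members were lower as deposited and 8 of 8 with copies summed, when they ran from -0.15 to -0.01. Rpl19 had 529 FPKM in PBS and 527 in SJMHE1, Rpl31 had 171 and 165, and Rpl35 had 162 and 152. In the group listed here as large subunit core 5 of 5 were lower, with a median of -0.15. Rpl10a is in this list but is not a protein of the core. Rpl8 had 527 and 499 FPKM, and Rpl10a had 200 and 182 FPKM.

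At the mRNA entry and decoding region of the small subunit, 5 of 5 were lower. Rps3 had 211 and 198 FPKM (-0.09), Rps23, which sits at the decoding centre, 357 and 338 FPKM (-0.08), and Rps15 826 and 767 FPKM (-0.11). Rps27a, which is made as a fusion with ubiquitin, had 261 and 226 FPKM (-0.21), and its ratio was -0.09 with copies, of which Rps27a-ps2 went from 1508 to 3462 counts. Rps6, the substrate of the S6 kinases downstream of mTOR, had 640 and 573 FPKM, a ratio of -0.16 (-0.18 to -0.15).

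Mutations of ribosomal protein genes cause Diamond-Blackfan anaemia, and 9 members linked to it were listed. All 9 were lower as deposited, from -0.12 in Rps24 to -0.01 in Rpl11, as were 74 of all 83 members, and 8 of 9 were lower with copies summed and 5 of 9 with rescaled FPKM. Rps19, the gene most often mutated in this disease, had 105 FPKM in PBS and 101 in SJMHE1. Rps26 had 154 and 144 FPKM, Rps7 196 and 185 and Rps10 108 and 103. Rpl35a, at 11.2 and 10.4 FPKM, was the exception, with 0.01 (-0.02 to 0.04) when its 12 copies were included.

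Proteins made with the ribosome but named otherwise were also lower. Fau, the fusion that gives the small subunit protein eS30, had 603 FPKM in PBS and 552 in SJMHE1 (-0.13). Rack1, a scaffold on the head of the small subunit, had 203 and 174 FPKM (-0.23). Of 20 other TOP mRNAs, these among them, 19 were lower, with a median of -0.18, from Eif3f at 119 and 89.8 FPKM (-0.40) to Cct4 at 49.1 and 51.0 FPKM (0.06). Past 1.2-fold, 4 of the 20 were lower, a share near the 20.2% of all genes compared, and 0 were higher, against 16.7%.

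Elongation factors went the same way in 6 of 7 cases, with a median of -0.14. Of these, Eef1a1, Eef1b2, Eef1d, Eef1g and Eef2 are also in the list of other TOP mRNAs. Eef2, which moves the ribosome along the mRNA, had 1078 FPKM in PBS and 894 in SJMHE1 (-0.27), and Eef1a1, which brings the tRNAs, had 3403 and 3019 FPKM (-0.17). Eef1g (156 and 142 FPKM), Eif5a (115 and 104), Eef1d (15.0 and 13.9) and Eef1b2 (158 and 149) were lower too. Eef1e1, a part of the tRNA synthetase complex, had 4.64 and 5.50 FPKM (0.25). Of 39 initiation factors and their binding proteins, 29 were lower and 9 higher, with a median of -0.14, from Eif3f to Eif4a2 at 174 and 211 FPKM (0.28). Pabpc1, Eif3e, Eif3f, Eif3h and Eif4b are likewise in both lists, so the counts of these lists are not separate.

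The host genes of small nucleolar RNAs that are of the TOP class were lower in 9 of 11 cases, with a median of -0.26. Snhg15 had 17.6 FPKM in PBS and 8.34 in SJMHE1 (-1.07), past 2-fold, and Snhg17 had 6.42 and 6.68 FPKM (0.06). Genes of ribosome biogenesis, which make and process rRNA in the nucleolus, were even, with 22 of 47 higher, 24 lower and a median of -0.01. They ran from Gar1 at 12.1 and 9.49 FPKM (-0.35) to Taf1a at 6.91 and 8.78 FPKM (0.35). Regulators of TOP translation had 6 of 13 higher and 7 lower, with a median of -0.02, from Akt1 at 22.8 and 17.0 FPKM (-0.43) to Rps6kb1, an S6 kinase, at 7.60 and 9.99 FPKM (0.39).

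Mitochondrial ribosomal proteins, encoded in the nucleus and translated in the cytosol, had a median of -0.07, with 48 of 78 lower. They ran from Mrpl27 at 6.10 and 4.27 FPKM (-0.51) to Mrps6 at 1.45 and 3.07 FPKM (1.08). The shares of these lists that were lower are read against the 51.9% of all genes compared, and no list was tested. These lists were not rerun with FPKM rescaled to a common sum, which adds 0.083 to every log2 ratio.

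**Figure D5:**
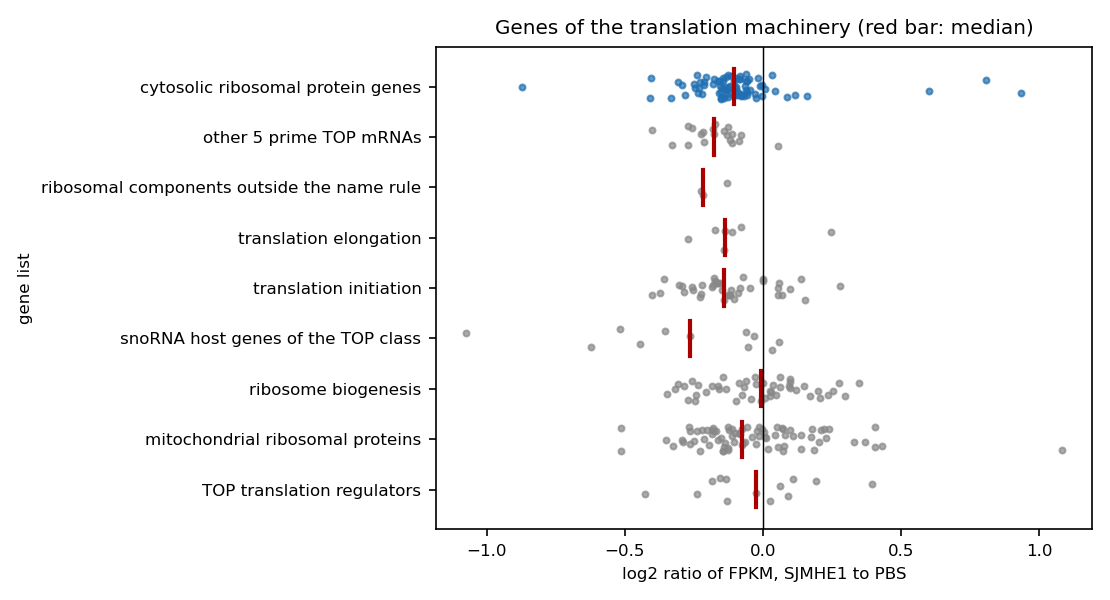
Log2 ratio of FPKM, SJMHE1 to PBS (x axis), of each gene (points) in the cytosolic ribosomal protein genes and 8 other lists of the translation machinery (y axis), with the median of each list as a red bar. The medians run from -0.26 for the host genes of small nucleolar RNAs to -0.01 for ribosome biogenesis, and the cytosolic ribosomal protein genes are at -0.11. Some genes are in several of the other lists.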

How the data were processed

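RNA of sorted spleen B cells, depleted of ribosomal RNA, was sequenced by the authors. The authors deposited raw counts, whole and not scaled, for each gene. They also deposited FPKM, which is counts over exon length and library size. The submitters' processing notes name mm10, bcl2fastq 2.0, HISAT2, StringTie, DESeq2 and limma, and their roles and how reads with several matches were counted are not given in the sources used here. The names of 2 value columns match no sample and were not used.

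Genes were compared by log2 of FPKM in SJMHE1 over PBS, without a pseudocount, if 1 library reached 1 FPKM and neither was at 0. Intervals are exact (Clopper-Pearson, 95%) from the counts. With 1 library per group no test was made. Folds of 2 and 1.2 were counted. Copies were found with 50-base windows of GENCODE M21 transcripts, which held all 85 members, 72 of them with the same coordinates as the table. Python 3.11.15, numpy, pandas, scipy and edgeR 4.0.16 (TMM factors only) were used. Ratios and intervals were tested on simulated counts that held counting error alone. The simulation had no variation between mice and no reads with several matches, so it checked the calculation only.

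Genes were named where they were among the 5 highest or lowest by mean FPKM or by ratio, were paralogs, had a listed role, were at either end of another list or were in a list of up to 8. Rpl15, Rpl28, Rpl30, Rpl36, Rpl41, Rps21, Rps23rg1 and the copies were named after their values were seen. Some genes that this rule names are not reported here. Members and lists were chosen with earlier results of these data known, and the list of mitochondrial ribosomal proteins was added last.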

Additional observations from a re-analysis of the deposited data

How the results depend on the processing

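The median log2 ratio of the members was below 0 under the 16 alternatives run. It lay within 0.03 of the deposited-FPKM value under 14 of them and moved to -0.062 with median-of-ratios size factors and to -0.024 with FPKM rescaled to a common sum. The count of members higher became 15 with size factors, 29 with rescaled FPKM and 5 with copies summed. It was 4 (49 lower) among the 53 members with under 25% of windows in another gene. These windows are of all annotated transcripts and not of the coding sequence alone, so this subset is not free of copies. It holds Rpl21 (14.9%), Rps18 (19.0%), Rpl26 (22.7%) and Rpl30 (10.7%), whose summed counts lay mostly in copies. The count lower past 1.2-fold became 4 where both libraries had to reach 10 FPKM, with copies summed, with the copy of the most counts alone or among those 53 members, and 3 with rescaled FPKM. The count higher past 1.2-fold became 1 with copies summed and 0 among the 53. The count past 2-fold became 1 with no filter (Rps23rg1) and 1 with rescaled FPKM (Rpl17). The alternatives on copies and on windows were chosen after seeing the data.

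The share of the members was 6.48% of summed FPKM in PBS and 6.43% in SJMHE1, 4.62% and 4.17% of counts of protein-coding genes, 5.04% and 4.66% without the 50 most abundant other genes, and 5.13% and 4.70% with copies. Of the 10 highest members by FPKM, 4 in each library were among the 10 highest by counts, and 6 in PBS and 5 in SJMHE1 by counts with copies per kilobase of coding sequence. The median of ribosome biogenesis turned from -0.01 to 0.0041 when FPKM was centred on all genes. The other lists were not rerun with FPKM rescaled to a common sum, which adds 0.083 to every log2 ratio. With that shift the medians of mitochondrial ribosomal proteins (-0.074) and regulators of TOP translation (-0.024) would turn higher too. The cause of these moves was not tested. No paired analysis was possible because there was 1 library per group and so no test. Counting intervals were wide in low rows such as Rpl29, with 122 counts in PBS, a row whose summed counts lay mostly in copies.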
